A study of Mus musculus with 2 samples.

Results

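The transcription factors that hold mouse embryonic stem cells (mESCs) in the naive state of pluripotency were examined on expression arrays of AIMP3-depleted cells. The 10 genes were taken as a set of names, chosen with earlier results of these data known. *Pou5f1* (*Oct4*), *Nanog* and *Sox2* are the 3 core factors. *Zfp42* (*Rex1*), *Esrrb*, *Klf2*, *Klf4*, *Tbx3*, *Tfcp2l1* and *Prdm14* are the 7 genes of the naive circuit. The probes of all 10 genes were found through the RefSeq accession that the array lists for each probe. All 10 genes had a probe, with 12 probes in all, and they are 10 of 24022 genes tested. All mESCs carried loxP-flanked *AIMP3* alleles (AIMP3f/f) and the tamoxifen-dependent recombinase cre-ERT2, and they were kept in medium with leukemia inhibitory factor (LIF). AIMP3-depleted cells received 2 μM tamoxifen (4-OHT) for 4 days and were sampled as 2 replicates, and control cells received ethanol. On each of 2 arrays, Cy5 marked the RNA of a depleted replicate and Cy3 marked the same pool of RNA from 2 control replicates.

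The pool counts as 1 control sample. The tests of ratios against 0 thus carry no spread among control cultures, and their p-values measure the spread between these arrays, which may be technical. The dyes were not swapped, so a difference between the dyes for a given gene cannot be told apart from the treatment. The control cells had the recombinase but no tamoxifen, and effects of tamoxifen or of Cre activity cannot be told apart from loss of AIMP3 either. The number of mESC clones used for the arrays is not given in the sources used here.

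OCT4, SOX2 and NANOG bind together at enhancers of many genes of the pluripotent state, including their own genes. OCT4 and SOX2 are needed through the naive and the later, primed form of pluripotency. The factors of the naive circuit are tied to the preimplantation epiblast. They link the LIF and STAT3 pathway and the absence of differentiation signals to the core factors, and several of them can replace LIF when they are overexpressed. Some of these genes, *Tbx3*, *Klf2* and *Klf4* among them, are also expressed in cell types that are not pluripotent.

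Values are log2 ratios of AIMP3-depleted over control after background correction and loess normalization, and an error is the SD of 2 arrays. *Eef1e1*, the gene of AIMP3, had log2 ratios of -0.90 and -0.90 by its 1 probe, which is 53.6% of the control level. Its mean ratio was -0.99 from the scanner's own processed signals and -0.68 with median centring in place of loess. Whether this probe lies in the part of the gene that is flanked by loxP was not examined. A probe was tested if both arrays had it well above background in 1 or both channels, and the brightest probe stood for its gene. Of all spots that are not controls, between 59.3% and 60.6% were well above background in a channel, and no spot was saturated (0 spots). All 12 probes of the factors were well above background in both channels on both arrays, and 0 of their spots carried an outlier flag. The 8 genes set as markers of embryonic stem cells were likewise above background in every channel. The median SD between arrays over all genes was 0.048 on the log2 scale, and precision is limited by having 2 arrays.

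The factors did not move as 1 group. All 3 core factors had lower levels in AIMP3-depleted mESCs, with log2 ratios between -0.53 and -0.38, whereas 6 of the 7 genes of the naive circuit had positive ratios, up to 0.49 (7 with median centring in place of loess, and 5 from the scanner's own processed signals). Of all genes 52.7% had positive ratios. Of these 6 genes, *Esrrb* and *Prdm14* did not pass at an adjusted p under 0.05 by limma. In bulk RNA, fewer mESCs and less RNA per mESC cannot be told apart. None of the 10 passed the threshold of 1.5-fold (0.58 on the log2 scale) with an unadjusted p under 0.05 by limma (0 higher and 0 lower). Over all genes tested, 5.52% passed it upwards and 0.791% downwards, 6.32% in all. At any fold, 4 factors were higher and 4 were lower with a Benjamini-Hochberg adjusted p under 0.05 by limma, in a background in which 30.6% of genes passed upwards and 23.7% downwards, 54.2% in all. The background is therefore large, and passing by adjusted p alone sets a gene little apart. By the test that the methods name, *Pou5f1*, *Nanog*, *Zfp42*, *Klf4*, *Tfcp2l1* and *Prdm14* did not reach an unadjusted p under 0.05. Their p-values by that test were 0.205, 0.105, 0.145, 0.0924, 0.113 and 0.210. Those of *Sox2*, *Esrrb*, *Klf2* and *Tbx3* by that test were 0.0174, 0.0167, 0.0262 and 0.0425. None of the 10 passed that test after adjustment. The plot of ratios by probe shows the split between the core and the naive circuit on each array.

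**Figure D1:**
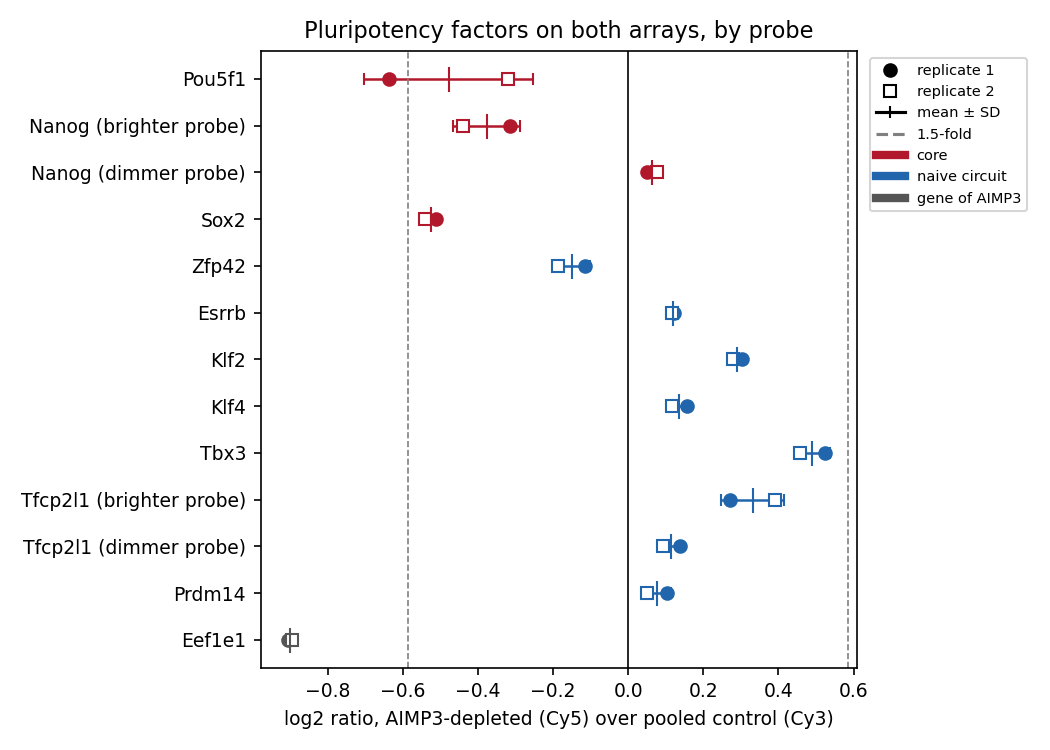
Log2 ratio of AIMP3-depleted over control (x axis) for each probe of the 10 factors and for *Eef1e1*, with filled circles for replicate 1, open squares for replicate 2 and bars for the mean ± SD of 2 arrays. The core factors lie between -0.64 and -0.31 on the arrays by their brightest probes, the naive circuit lies between -0.19 and 0.52, and the dimmer *Nanog* probe lies above 0.

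The promoters of the members with negative ratios are shown here, together with that of *Tfcp2l1*, which had a positive one. Those of *Esrrb*, *Klf2* and *Klf4*, which also had positive ratios, were searched but are not shown. A link between a motif and a ratio was not tested. Each line gives the 250 bases before a transcription start in RefSeq on GRCm38.p6, 5′ to 3′ on the strand of the gene. *Pou5f1* and *Nanog* have 2 windows each, and the one further upstream is shown. Capitals mark matches on either strand to TTTGCAT, the core of the octamer bound by OCT4, to ACAATG, a SOX motif, and to CCACACCC, a KLF motif.
*Pou5f1*, chr17:35505782-35506031, plus strand: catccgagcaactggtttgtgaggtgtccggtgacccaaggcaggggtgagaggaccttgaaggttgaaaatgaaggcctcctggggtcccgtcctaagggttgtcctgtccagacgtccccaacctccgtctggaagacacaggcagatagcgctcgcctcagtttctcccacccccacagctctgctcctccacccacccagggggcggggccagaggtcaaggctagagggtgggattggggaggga
*Nanog*, chr6:122707239-122707488, plus strand: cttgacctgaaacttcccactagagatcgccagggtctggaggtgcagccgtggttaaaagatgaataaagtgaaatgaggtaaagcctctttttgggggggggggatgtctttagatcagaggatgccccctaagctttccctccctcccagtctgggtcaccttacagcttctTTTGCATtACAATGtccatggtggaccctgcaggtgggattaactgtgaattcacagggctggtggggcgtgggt
*Sox2*, chr3:34649745-34649994, plus strand: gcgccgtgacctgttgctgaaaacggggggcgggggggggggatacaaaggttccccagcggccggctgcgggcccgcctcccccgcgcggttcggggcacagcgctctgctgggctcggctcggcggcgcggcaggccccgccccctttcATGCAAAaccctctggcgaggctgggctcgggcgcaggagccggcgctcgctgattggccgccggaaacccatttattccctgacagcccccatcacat
*Zfp42*, chr8:43307010-43307259, minus strand: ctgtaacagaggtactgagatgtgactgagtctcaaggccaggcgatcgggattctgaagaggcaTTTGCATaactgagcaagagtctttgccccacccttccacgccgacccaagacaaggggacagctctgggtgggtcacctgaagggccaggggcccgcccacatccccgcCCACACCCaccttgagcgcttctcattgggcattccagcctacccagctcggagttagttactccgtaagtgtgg
*Tfcp2l1*, chr1:118627695-118627944, plus strand: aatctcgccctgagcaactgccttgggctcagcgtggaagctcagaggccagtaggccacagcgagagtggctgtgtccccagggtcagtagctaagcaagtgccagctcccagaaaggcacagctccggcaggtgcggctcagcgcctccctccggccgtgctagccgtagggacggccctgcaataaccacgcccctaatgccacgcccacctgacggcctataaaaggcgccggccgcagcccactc
Of the 10 genes 8 had a promoter in the table used, and *Tbx3* and *Prdm14* had no entry. The octamer core stood in the windows of *Nanog*, *Sox2* and *Zfp42*, and 4.13% of all 32817 promoter windows of this length hold it. In *Nanog* it began 75 bases before the start and was followed after a single base by the SOX motif, which began at 67 bases. The SOX motif was held by 10.7% of all windows. It was also found in the downstream window of *Pou5f1*, which is not shown. The windows of *Nanog* overlap and hold the same copies of both motifs. The KLF motif was found in *Zfp42* (3.19% of all windows). A search for TTCNNNGAA, the palindrome bound by STAT factors, matched *Esrrb* only among the 8 genes (7.01% of all windows), and TCAAGGTCA, the site of ESRRB, matched none of them (0.387% of all windows). The windows of *Klf2*, *Klf4* and *Tfcp2l1* held none of the 5 motifs. The motifs and the promoters shown were chosen after the ratios were known, and a match describes letters and not binding.

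*Sox2*, which encodes the partner that binds DNA next to OCT4, had the lowest mean ratio of the set after loess. *Pou5f1* lay lower from the processed signals (-0.57 against -0.54), in the authors' deposited table (-0.53 against -0.50) and in replicate 1. For *Sox2*, replicate 1 gave -0.51 and replicate 2 gave -0.54, a mean of -0.53 ± 0.020 (SD, n = 2; adjusted p = 0.000241 by limma). This is 69.5% of the control level, and only 1.31% of all genes lay lower. The log2 signal in the control pool was 13.01 and 13.04 on the arrays, against 12.50 and 12.51 in the depleted samples, so the depleted and control signals were separated on both arrays. With median centring the ratio of *Sox2* was -0.29, against a median of all genes of 0.18.

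*Pou5f1*, the gene of OCT4, had the largest difference between arrays. Replicate 1 gave a log2 ratio of -0.64 and replicate 2 one of -0.32, with a mean of -0.48 ± 0.23 (SD, n = 2; adjusted p = 0.00285 by limma), or 71.8% of the control level. An SD this large was exceeded by few genes, and 97.9% of all genes had a smaller one. By the test that the methods name, *Pou5f1* did not pass (unadjusted p = 0.205). The control pool gave 12.13 and 12.09 for this probe, whereas the depleted replicates gave 11.49 and 11.77, so the arrays differed in the depleted channel by -0.28 and in the control channel by 0.037. Replicate 1 alone was past 1.5-fold, and replicate 2 was not. *Pou5f1* was measured by 1 probe, and no second probe could be set against this. With median centring its ratio was -0.26.

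*Nanog*, which stabilizes the pluripotent state and varies between single mESCs, had 2 probes that disagreed. Both are listed with the same accession. The brighter probe gave log2 ratios of -0.31 and -0.44, with a mean of -0.38 ± 0.089 (SD, n = 2; adjusted p = 0.00135 by limma) or 77.0% of the control level. In the authors' deposited table its adjusted p was 0.0543 by limma. The dimmer probe gave 0.051 and 0.077, with a mean of 0.064 and an adjusted p of 0.291 by limma over all probes. Brighter minus dimmer, the probes differed by -0.36 in replicate 1 and by -0.52 in replicate 2, a mean of -0.44 with an adjusted p of 0.0148 by limma over the 5887 genes with at least 2 tested probes. Of these genes 20.8% differed between their brightest probes at this level, and 93.3% had a smaller absolute difference than *Nanog*.

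The dimmer *Nanog* probe had median spot intensities of 341 and 364.5 for Cy3 over local backgrounds of 60 and 63, whereas the brighter had 1929.5 and 1894 over 50 and 53. From the processed signals the probes differed by -0.39, which did not pass (adjusted p = 0.114 by limma). The probe sequences were not used here, and neither the part of the transcript that each probe reads nor hybridization to *Nanog* pseudogenes could be examined. With both probes averaged the log2 ratio of *Nanog* was -0.16, closer to 0 than that of *Pou5f1* or *Sox2*. With median centring the brighter probe gave -0.17.

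*Zfp42*, the gene of the zinc finger protein REX1 and a common marker of naive mESCs, was the only gene of the naive circuit with a negative ratio. It had -0.12 and -0.19 on the arrays, with a mean of -0.15 ± 0.050 (SD, n = 2; adjusted p = 0.0319 by limma). This is 90.1% of the control level, and 22.2% of all genes lay lower. With no filter on dim probes its adjusted p was 0.0852 by limma. Its ratio turned to 0.067 with median centring in place of loess, a setting under which the median of all genes was 0.18 and not 0.015. Relative to the median of all genes it was -0.17 after loess and -0.11 after median centring.

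*Tbx3*, the gene of a T-box factor that maintains *Nanog* expression downstream of growth factor signals and also takes part in extraembryonic endoderm formation, had the highest ratio. The arrays gave 0.52 and 0.46, a mean of 0.49 ± 0.046 (SD, n = 2; adjusted p = 0.000351 by limma) or 140.5% of the control level. Of all genes 92.3% lay lower, so that positive ratios of this size were not rare, whereas few genes lay below *Sox2*. The control pool gave 12.04 and 12.03 and the depleted replicates 12.56 and 12.49. With median centring *Tbx3* reached 0.72 and was the single factor past 1.5-fold under any setting that used both arrays.

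*Tfcp2l1*, a grainyhead-like factor that acts downstream of STAT3, followed at 0.27 and 0.39, a mean of 0.33 ± 0.084 (SD, n = 2; adjusted p = 0.00213 by limma). The dimmer of its probes gave 0.14 and 0.092, a mean of 0.11 with an adjusted p of 0.0860 by limma over all probes. The probes had the same sign, and their difference of 0.22 did not pass (0.13 in replicate 1 and 0.30 in replicate 2; adjusted p of 0.0807 by limma). The mean of both *Tfcp2l1* probes was 0.22, and with median centring the brighter gave 0.56.

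The Krüppel-like factors *Klf2* and *Klf4*, which act in part redundantly in naive mESCs, were both above the control level. *Klf2* had ratios of 0.30 and 0.28, a mean of 0.29 ± 0.017 (SD, n = 2; adjusted p = 0.00221 by limma) or 1.22-fold. *Klf4*, which responds to LIF through STAT3, had 0.16 and 0.12, a mean of 0.14 ± 0.028 (SD, n = 2; adjusted p = 0.0402 by limma) or 109.9% of the control level. *Klf4* did not pass from the scanner's own processed signals (0.10, adjusted p = 0.143 by limma), in the authors' deposited table (0.14, adjusted p = 0.0829) or with no filter on dim probes (0.14, adjusted p = 0.102). With median centring *Klf4* had 0.37 and *Klf2* 0.53. *Klf5*, the third Krüppel-like factor known to act with them, was not in the set and had 0.31 and 0.38, the highest ratio among partners of the core factors.

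*Esrrb*, an orphan nuclear receptor that is a target of NANOG, had 0.12 and 0.12 on the arrays. Its mean of 0.12 ± 0.0044 (SD, n = 2) did not pass (adjusted p = 0.0590 by limma), and its 95% interval ran from 0.013 to 0.22. In the authors' deposited table *Esrrb* had 0.20 and passed (adjusted p = 0.0357 by limma). *Prdm14*, a regulator that represses FGF signalling and DNA methylation in naive cells, had 0.10 and 0.050, a mean of 0.077 ± 0.037 (SD, n = 2), and did not pass either (adjusted p = 0.192 by limma). Its 95% interval ran from -0.032 to 0.19. From the scanner's own processed signals its ratio was -0.021. With median centring both genes passed, with 0.44 for *Esrrb* and 0.26 for *Prdm14*, which is 0.26 and 0.077 above the median of all genes. After loess a change as large as that of *Sox2* lay outside both intervals. Both intervals are those of the moderated test and leave out the spread between control cultures.

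The control pool was hybridized to both arrays, so its repeat gives a measure of the technical error of each probe in Cy3. No sample was repeated in Cy5, so technical error there cannot be told apart from a difference between the depleted replicates. Over all genes the median absolute difference between arrays was 0.054 in Cy3 and 0.067 in Cy5. For the 10 factors, the log2 signal of the pool differed between the arrays by -0.092 (*Prdm14*) to 0.072 (*Tfcp2l1*). The depleted samples differed by -0.28 (*Pou5f1*) to 0.19 (*Nanog*), and the other 8 factors lay between -0.047 (*Tfcp2l1*) and 0.070 (*Tbx3*). The plot of channel signals shows that *Pou5f1* and *Nanog* stand apart in the depleted channel only, in opposite directions, since *Pou5f1* was lower in replicate 1 and *Nanog* was lower in replicate 2.

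**Figure D2:**
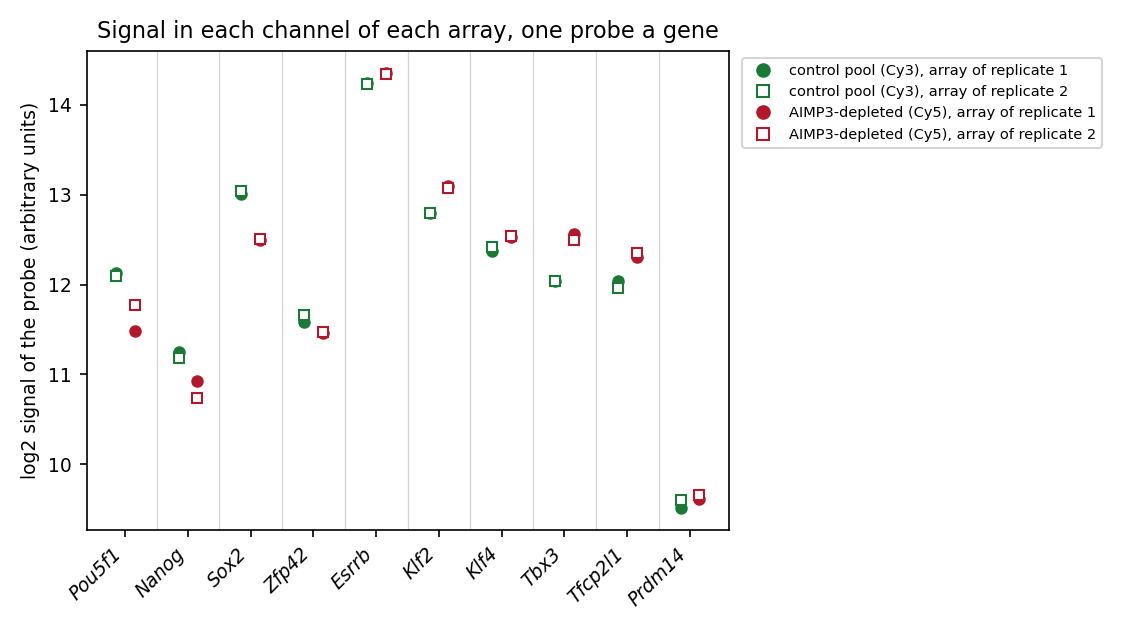
Log2 signal (y axis, arbitrary units) of the brightest probe of each factor in the control pool (green) and in AIMP3-depleted mESCs (red), with circles for the array of replicate 1 and open squares for that of replicate 2. Signals of different probes are not comparable with each other; within a gene the control signals lie at most 0.092 apart, and the depleted signals of *Pou5f1* lie 0.28 apart.

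Ordered by their mean ratios after loess, the factors ran from *Sox2* through *Pou5f1*, *Nanog*, *Zfp42*, *Prdm14*, *Esrrb*, *Klf4*, *Klf2* and *Tfcp2l1* to *Tbx3*. The array values of 4 of the 9 neighbouring pairs overlapped, namely *Sox2* with *Pou5f1*, *Pou5f1* with *Nanog*, *Esrrb* with *Klf4*, and *Klf2* with *Tfcp2l1*. By the 95% intervals of the moderated test 8 of the 9 pairs overlapped, all but *Zfp42* and *Prdm14*. The interval of *Tbx3*, from 0.38 upwards, also lay clear of those of *Klf4*, *Esrrb* and *Prdm14*, which ended at 0.24, 0.22 and 0.19. The lowest array value of the naive circuit (-0.19) lay above the highest of the core (-0.31) with the brightest probes.

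**Figure D3:**
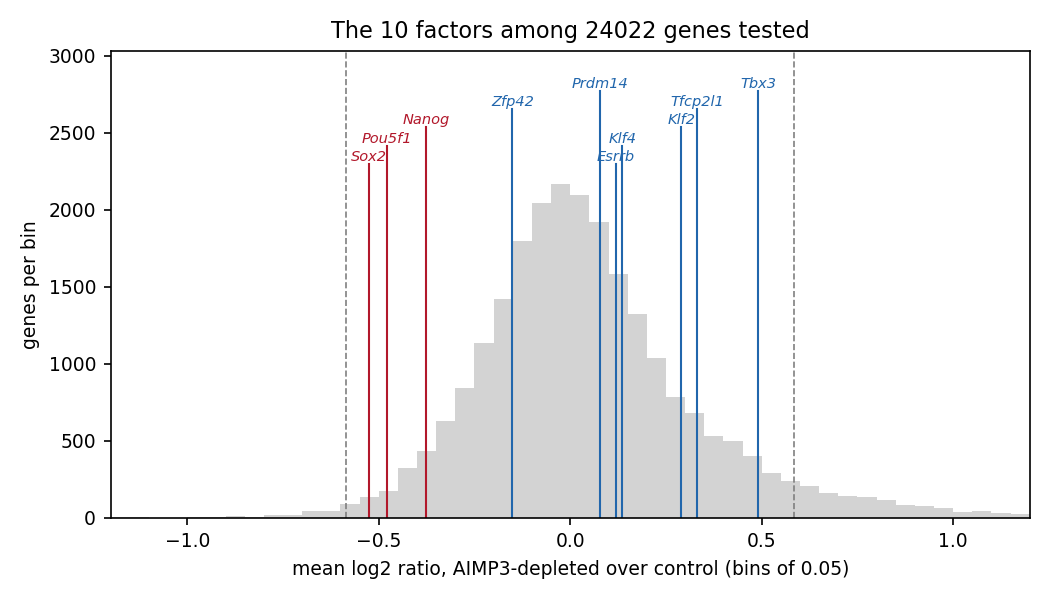
Number of genes (y axis) by mean log2 ratio of AIMP3-depleted over control (x axis, bins of 0.05) for all 24022 genes tested, with lines at the core factors (red) and the naive circuit (blue) and dashed lines at 1.5-fold. *Sox2* at -0.53 and *Pou5f1* at -0.48 lie in the thin lower tail, whereas *Tbx3* at 0.49 lies in the broader upper tail.

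Taking the core minus the naive circuit removes any shift that all genes share. The mean log2 ratio of the core minus that of the naive circuit was -0.68 for replicate 1 and -0.61 for replicate 2 (mean -0.64 ± 0.053, SD, n = 2). It was -0.66 with median centring, -0.65 with the processed signals (and so in the authors' deposited table, which differs from them by a constant) and -0.56 with all probes of a gene averaged. Which of the 2 groups stood further from 0 depended on the normalization. The median of the core was -0.48 after loess and -0.26 after median centring, and that of the naive circuit was 0.14 and 0.44. The plot of the ratios under other processing shows this joint shift. The distance is given as a description, with no test.

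**Figure D4:**
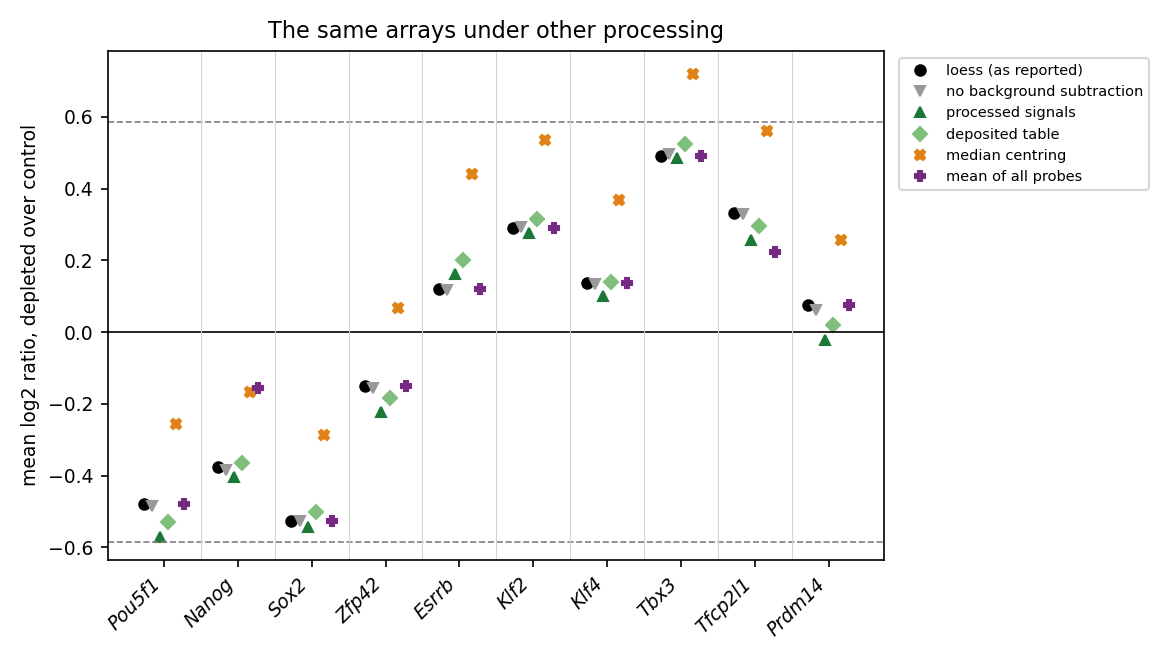
Mean log2 ratio of AIMP3-depleted over control (y axis) of each factor under 6 ways of processing the same arrays, with dashed lines at 1.5-fold. Median centring (orange) lies above the other settings for every factor except *Nanog*, where the mean of all probes is higher still (-0.16 against -0.17), and under it *Zfp42* crosses 0 and *Tbx3* passes 1.5-fold.

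Further genes of the pluripotency network were grouped by role. These lists, too, were chosen with earlier results of these data known, and their counts are descriptions. Of 14 targets of the core factors, all measured, 3 fell past 1.5-fold, 0 rose past it and 11 had negative ratios. Over all genes 0.791% fell past it and 47.3% had negative ratios, and the median was 0.015 against -0.16 for the targets. *Fgf4*, the growth factor gene with a classical OCT4 and SOX2 enhancer, had -0.85 and -0.89 (mean -0.87, adjusted p = 5.38e-05 by limma). *Dppa3*, which protects maternal methylation and is high in naive cells, had -0.65 and -0.60 (mean -0.62, adjusted p = 0.000146 by limma). *Tdgf1*, the co-receptor gene of NODAL, had -0.55 and -0.64 (mean -0.59, adjusted p = 0.000206 by limma). None of these 3 falls was past 1.5-fold with median centring (-0.47, -0.41 and -0.20), and that of *Tdgf1* was short of it also with the processed signals (-0.55) and in the authors' deposited table (-0.51) and did not pass the test that the methods name. The highest ratio of the list was that of *Dppa5a*, an RNA-binding protein gene high in mESCs, at 0.52 and 0.48 (mean 0.50). It was short of 1.5-fold after loess and from the processed signals (0.30), but past it with median centring (1.03).

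Of 14 partners of the core factors, 0 passed 1.5-fold, 4 had positive ratios and the median was -0.093. Over all genes 5.52% rose and 0.791% fell past it and 52.7% had positive ratios, so lists of this size with 0 past it are near the background. Their ratios ran from *Zfp143* (-0.28) to *Klf5* (0.34). Of 8 genes of the LIF and STAT3 input, 0 passed 1.5-fold and the median was -0.026. They ran from *Pim3* (-0.25), a kinase gene induced by STAT3, to *Jak1* (0.31), a kinase gene that acts at the LIF receptor. *Socs3*, the feedback inhibitor that STAT3 induces, had -0.13 and -0.21, and *Stat3* itself had 0.18 and 0.17; these were named after their values were seen. Of 5 repressors or antagonists of the naive circuit 0 passed 1.5-fold, from *Rbpj* (-0.43) to *Tcf7l1* (0.044), with a median of -0.12. *Rbpj* had 2 probes, and its ratio was -0.22 with both averaged and -0.19 with median centring. With median centring the medians of the partners, the LIF and STAT3 input, the repressors and the targets lay above 0 (0.15, 0.20, 0.15 and 0.099).

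Genes of the formative and primed states, into which naive cells move at implantation, were grouped likewise. Of 10 genes 9 had negative ratios and 2 fell past 1.5-fold, beside 47.3% and 0.791% of all genes, with a median of -0.40 against 0.015. With median centring the median of the list was -0.19, against 0.18 over all genes. *Otx2*, the factor that leads cells out of the naive state, had -1.65 and -1.67 (mean -1.66, adjusted p = 3.53e-05 by limma), the lowest ratio of all 24022 genes. *Dnmt3b*, a de novo DNA methyltransferase gene, had -0.77 and -0.70 (mean -0.73, adjusted p = 9.10e-05 by limma), and -0.31 with median centring. The highest member was *Lef1* at 0.054. The plot of gene lists shows each list after loess.

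**Figure D5:**
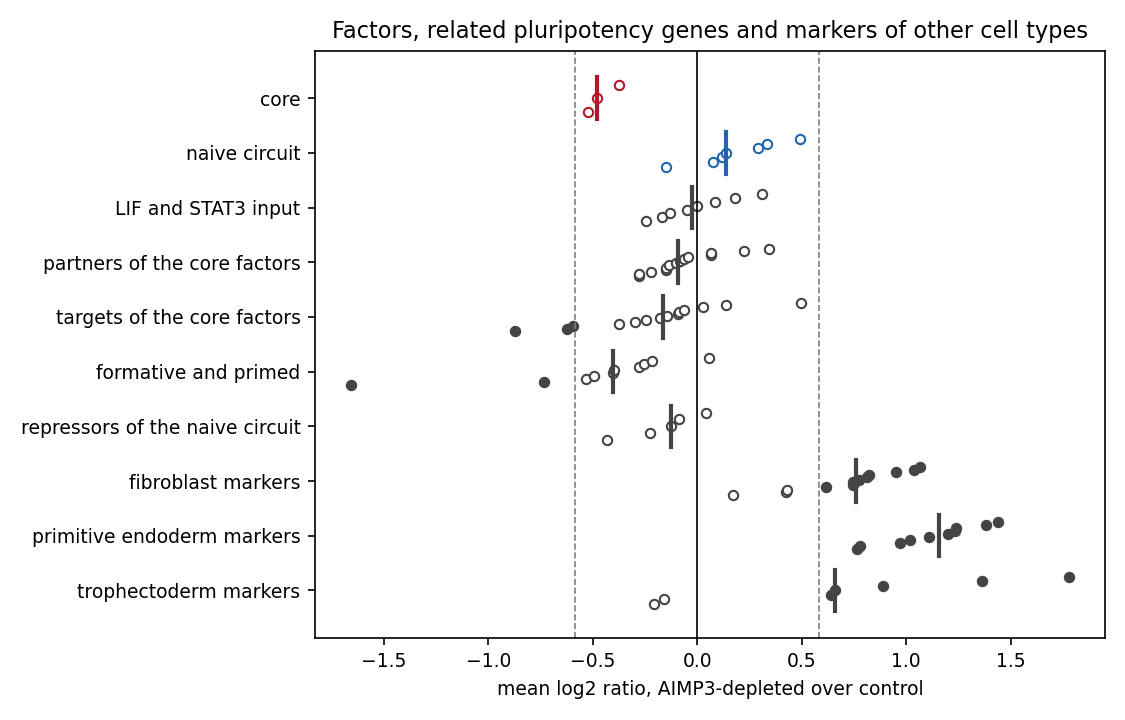
Mean log2 ratio of AIMP3-depleted over control (x axis) of each gene in the core, the naive circuit, 5 lists of related genes and 3 lists of markers of other cell types, with filled points for genes past 1.5-fold with p under 0.05, vertical bars for list medians and dashed lines at 1.5-fold. The core lies at a median of -0.48 near the formative list (-0.40), and the naive circuit at 0.14 lies below the marker lists (0.66 and above).

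Markers of other cell types moved with the treatment on the same arrays. Their lists were also chosen with earlier results of these data known. All 10 markers of primitive endoderm rose past 1.5-fold, from *Gata4* (0.77) through *Dab2*, *Pdgfra*, *Lama1*, *Sox7*, *Gata6*, *Col4a1*, *Sparc* and *Foxa2* to *Sox17* (1.44), with a median of 1.16. Over all genes 5.52% rose past it and the median was 0.015. Of 12 fibroblast markers 9 rose past it, namely *Pdgfrb*, *Prrx1*, *Col5a1*, *Postn*, *Col6a1*, *Twist2*, *Col3a1*, *Col1a2* and *Col1a1* (1.06), and the lowest was *Thy1* (0.17), with a median of 0.76. Of 7 measured trophectoderm markers *Tead4*, *Cdx2*, *Hand1*, *Krt8* and *Krt18* (1.78), 5 in all, rose past it, with a median of 0.66. The other 2 had negative ratios. The lowest was *Tfap2c* (-0.21), and *Eomes* had -0.11 and -0.21 (mean -0.16, adjusted p = 0.0286 by limma). *Elf5* was not tested because its probe was dim. By the test that the methods name, *Gata4*, *Dab2*, *Foxa2*, *Pdgfrb*, *Col6a1* and *Cdx2* did not pass. *Pdgfrb* in replicate 2 (0.56) and *Cdx2* in replicate 1 (0.54) were short of 1.5-fold. Every measured marker was well above background in every channel. The log2 of the summed signal of the endoderm list was 17.04 and 17.09 in the control pool and 18.24 and 18.25 in the depleted samples. That of the fibroblast list was 16.53 and 16.54 against 17.09 and 17.05, and that of the trophectoderm list 15.99 and 16.04 against 17.50 and 17.59. That of the core was 13.88 and 13.89 against 13.37 and 13.43, and that of the naive circuit 15.42 and 15.43 against 15.62 and 15.61. Signals of different probes are not comparable, and the brightest probes weigh most in a sum. The sums thus do not give amounts of RNA per cell type, and lists cannot be compared by them. The labels describe fibroblast feeder layers as the general culture, and the methods name medium conditioned by such cells for drug treatment. The part of RNA from other cells in the ratios of the factors was not tested.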

How the data were processed

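The authors deposited 1 scanner file per array, made with Agilent Feature Extraction (11.5.1.1 in the file header), holding unnormalized intensities of spots and their local backgrounds, and processed intensities that the software had background-subtracted and dye-normalized. The array design names build mm9. The authors also deposited log2 ratios, for which the methods name GeneSpring GX 7.3.1. They equalled the log2 ratio of the processed signals plus 0.040 and 0.039 within 0.01 for 100.0% of single-spot probes, so positive values stand for AIMP3-depleted over control. All deposited columns of sample values were used (0 left out).

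Median spot intensities were corrected with normexp (offset 50) on all spots and normalized by loess without control spots. Spots with outlier flags (215 and 227) were dropped, the remaining spots were averaged per probe, and 33012 of 55681 probes were tested. Channel signals were further scaled between arrays with Aquantile. Accessions were named through RefSeq genes of GRCm38.p6, used for names only. Log2 ratios were tested in limma (lmFit, eBayes) as means differing from 0, with 1 residual and 5.25 prior degrees of freedom. Genes named were all 10 factors, *Eef1e1* and, per list, those past the threshold and the highest and lowest. *Socs3*, *Stat3* and *Eomes* were added after their values were seen. Alternatives were median centring, the scanner's processed signals, the deposited table, uncorrected background, the mean of all probes, other filters, other thresholds, each array alone and the test named in the methods. Both arrays were on 1 slide. Members and lists were chosen with earlier results of these data known, and steps were tested on simulated data. There, 88 of 100 genes changed by 2-fold were called in the right direction. Of 100 genes changed by a log2 ratio of 0.7, nearer to the threshold, 60 were. Of unchanged genes 0 were called. R 4.3.3, limma 3.58.1, jsonlite 2.0.0, version 1.17.8 of data.table, Python 3.11.15, pandas 2.3.3 and matplotlib 3.10.9 were used.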

Additional observations from a re-analysis of the deposited data

How the results depend on the processing

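Of the 10 factors, *Zfp42* turned to 0.067 with median centring and *Prdm14* to -0.021 with the processed signals, as did the dimmer *Nanog* probe (-0.014). *Tbx3* passed 1.5-fold with median centring (0.72). The other 7 factors kept their sign and stayed within 1.5-fold under every setting with both arrays. With 1 array left out, no test is possible. *Pou5f1* then ranged from -0.64 to -0.32, *Nanog* from -0.44 to -0.31, and the count of lower factors past 1.5-fold from 0 to 1. The *Nanog* probe difference was -0.39 with the processed signals and did not pass (adjusted p = 0.114 by limma).

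At an adjusted p under 0.05 at any fold, 4 factors were higher and 4 lower. Over 2-fold there were 0 of either. The higher factors at this p numbered 3 to 6 and the lower ones 3 to 4 over the other settings tested with limma. Between 31.2% (no filter) and 63.2% (median centring) of all genes passed at this p in these settings. Under median centring 1 factor was higher past 1.5-fold. The methods' test called 0 factors and 0 genes after adjustment, and 992 genes at its unadjusted threshold. The median of the core was -0.54 with the processed signals and -0.26 with median centring. That of the naive circuit was 0.44 with median centring and 0.20 in the deposited table. The core minus the naive circuit was -0.56 with all probes averaged.

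Genes past the threshold numbered 1327 higher and 190 lower. They were 2823 and 65 with median centring, 2130 and 617 in the deposited table, 864 higher by the methods' test, 776 lower with the processed signals, 281 and 17 over 2-fold, and 7342 and 5686 by adjusted p at any fold. Rises made up 87.5% of these calls, 97.7% with median centring, 71.5% with the processed signals and 77.5% in the deposited table. With median centring the medians of the lists turned to 0.20 (LIF and STAT3 input), 0.15 (partners), 0.099 (targets) and 0.15 (repressors), and *Tfap2c* to 0.047. With either array alone the median of the LIF and STAT3 list ranged from -0.065 to 0.013, and *Tcf7l1* had -0.012 with the processed signals. The cause of these shifts was not tested.

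No paired analysis was possible because a single group of replicates was measured against 1 pool. Signal over background had a median between 2.68 and 3.31 per channel, and low signal limits the dimmer *Nanog* probe and *Prdm14* most among the factors.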
